A study of Gallus gallus with 24 samples.

Results

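ENPP7, the alkaline sphingomyelinase of the intestine, was described in the ileum of broilers together with the genes that carry its products further through the sphingolipid pathway. A total of 8 genes were listed, and all 8 were found among the 25339 genes of the table. ENPP7, SMPD1, ASAH1, SPHK1, SGPL1, SGMS1 and SGMS2 were found by symbol. ASAH2 was found by its gene ID (ENSGALG00000003751), which has no symbol in the table but carries that name in the study. ENPP7 was chosen by its level in the birds fed magnolol, and both ENPP7 and ASAH2 belong to the genes that the study singled out as differing between groups. Their differences between groups and sexes are therefore a description with no test. The other 6 genes were chosen for their place in the pathway, with earlier results of these data known, and were tested. The samples were ileum from 24 Arbor Acres broilers aged 14 d, with 6 birds to a group. CTL stands for birds on the basal diet that were dosed by mouth with 0.5 mL of sterilized PBS at 5 d of age. SP stands for birds on the same diet dosed at that age with 0.5 mL of a Salmonella pullorum suspension (strain C79-3). The SPH and SPM birds were challenged like the SP birds and ate 300 mg/kg of honokiol (SPH) or 300 mg/kg of magnolol (SPM), isomeric phenolic compounds of magnolia bark. CTL cages stood apart from those of the challenged birds, so the place of rearing and the challenge cannot be told apart. Each bird came from a different cage of its group, and all birds were slaughtered after a fasting period. No other treatment or genotype was given for the birds.

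Sphingomyelin reaches the gut with food, with bile and with shed cells. In mammals, ENPP7 sits on the outer face of the enterocyte brush border, depends on bile salts, and splits sphingomyelin into ceramide and phosphocholine. Ceramidases free sphingosine from the ceramide, which enterocytes take up, and sphingosine kinases phosphorylate it to the signalling lipid sphingosine-1-phosphate. Sphingosine-1-phosphate lyase ends the pathway by breaking that lipid down, while the sphingomyelin synthases run the other way and rebuild sphingomyelin from ceramide.

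Levels are given in FPKM, fragment numbers corrected for gene length and for library depth, so that genes of different length share a scale. Reads on genes numbered 14393822 to 19435410 per bird, with a median of 16234879. The labels give ileum as the tissue although their protocol mentions retinas, and the ileum was checked by its markers. FABP6, the bile acid binding protein of the ileal enterocyte, had a mean of 2897 FPKM, and APOA1, FABP1, FABP2 and EPCAM had means of 5146, 3943, 2208 and 1140.3 FPKM. Sex was read from the FPKM summed over the 149 genes of the W chromosome, which only female birds carry. Birds above 100 were taken as female, and the lowest female stood at 511.89 and the highest male at 3.26. This made 16 females and 8 males, with 6 females in CTL, 3 females and 3 males in SP, 3 and 3 in SPH, and 4 females and 2 males in SPM. CTL held no male, so comparisons with CTL in males cannot be made. The comparisons of all birds with CTL had no term for sex, so sex is mixed with challenge and diet in them.

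ENPP7 was by far the most abundant of the 8 genes. Its mean over the 24 birds was 693 FPKM, rank 95 of the 17288 genes tested, and between 6741 and 30584 reads fell on it in each bird. The mean FPKM of ENPP7 was 7.31 times that of ASAH1 and 49.4 times that of SGMS1, the extremes among the other 7 genes. ENPP7 also varied most among birds. Its highest bird stood 4.61 times above its lowest, followed by 3.40 times for ASAH2 and 1.56 to 2.43 times for the other 6. The gene (ENSGALG00000013743) lies on chromosome 18 from 9638646 to 9641916 in the deposited table, for which the submitters' notes name the build GRCg6a, and its length there is 1335 bases.

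ENPP7 had a higher mean in SPM than in the other groups, and its highest values were those of SPM females. In CTL the 6 birds had 529.5, 768, 686, 833, 370.2 and 676 FPKM. In SP the females had 323, 373 and 412 FPKM and the males 482, 991 and 817 FPKM. In SPH the females had 522, 375 and 677 FPKM and the males 615, 402 and 712 FPKM. In SPM the 4 females had 1169, 1155, 1491 and 914.5 FPKM and the 2 males 608 and 726 FPKM. Every SPM female was above every CTL bird, every SPH bird and every SP female, while both SPM males lay inside the range of CTL. The mean ENPP7 level of SPM was 1010.5 ± 325 FPKM (SD, n = 6 in every group), against 644 ± 168 FPKM for CTL, 567 ± 272 FPKM for SP and 550.4 ± 141 FPKM for SPH. On the scale of log2(FPKM + 0.1) SPM was 0.90 ± 0.27 (SE) above SP, 0.85 above SPH and 0.63 above CTL. These 3 differences come from the values that led to the choice of ENPP7.

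**Figure D1:**
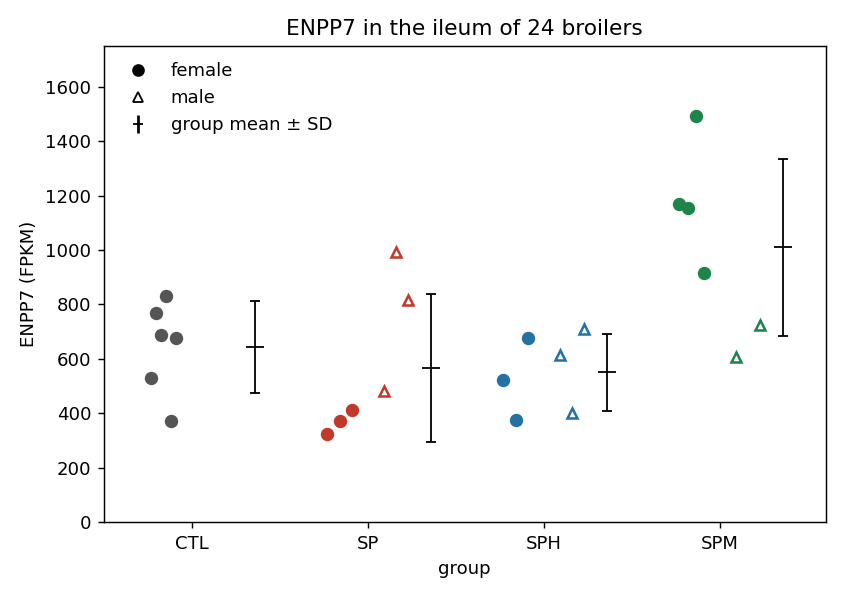
ENPP7 level in FPKM (vertical axis, from 0) in each bird of CTL, SP, SPH and SPM (horizontal axis). Filled circles are females, open triangles are males and the bars show the group mean with its SD. The 4 SPM females sit at 914.5 to 1491 FPKM, and the 3 SP females sit at 323 to 412 FPKM.

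The other groups lay closer together. On the log2 scale ENPP7 differed by -0.26 ± 0.27 (SE) between SP and CTL, by 0.04 ± 0.27 between SPH and SP and by -0.22 ± 0.27 between SPH and CTL. The ranges of these 3 groups overlapped.

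Within each sex the order of the groups was not the same. Among females, ENPP7 had a mean of 1182 ± 237 FPKM in SPM (n = 4), 644 ± 168 in CTL (n = 6), 525 ± 151 in SPH (n = 3) and 369.6 ± 44.5 in SP (n = 3). The ranges of the SPM females and of the females of each other group did not overlap, whereas those of CTL and SPH, and of SPH and SP, did. Among males, the mean was 764 ± 259 FPKM in SP (n = 3), 667 ± 83.4 in SPM (n = 2) and 576 ± 159 in SPH (n = 3), and these 3 ranges overlapped. SPM females had 3.20 times the mean ENPP7 level of SP females, and SPM males had 0.87 times that of SP males. In a fit with 1 mean per group and sex, SPM minus SP was 1.66 on the log2 scale in females and -0.14 in males, a difference of 1.80 between the sexes. In SP all 3 females were below all 3 males, and in SPM all 4 females were above both males. In SP females minus males was -0.99 ± 0.30 for ENPP7. SP minus CTL in females was -0.76, and the highest of the 3 SP females lay above the lowest CTL bird. Over all groups, females minus males was -0.14.

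SMPD1, the acid sphingomyelinase of the lysosome, catalyses the same cleavage as ENPP7 in another compartment and had a mean of 36.6 FPKM. Its group ranges overlapped, with 31.7 to 44.2 FPKM in CTL, 26.7 to 40.6 in SP, 33.0 to 39.4 in SPH and 32.4 to 42.3 in SPM. In SP, however, the females had 40.6, 39.6 and 39.9 FPKM and the males 28.2, 30.3 and 26.7 FPKM. The sexes were thus ordered in SP the other way round from ENPP7. The difference, 0.50 ± 0.12 on the log2 scale, passed the limit of 0.05 on the adjusted p (0.0334 by limma over all genes) but before rounding lay just under the fold limit of 0.5. With FPKM rescaled to total reads it was 0.63 (adjusted p = 0.00661) and with quantile normalization 0.57 (adjusted p = 0.00892), past both limits. In SPH and SPM, females minus males was 0.01 and 0.06 for SMPD1. All 3 SPH males and both SPM males had more SMPD1 than any SP male, by 0.32 and 0.38 on the log2 scale (adjusted p = 0.581 and 0.73 by limma).

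ASAH2, the neutral ceramidase, takes the fatty acid off ceramide on the brush border in mammals and so acts next after ENPP7. The gene lies on chromosome 6 from 10457505 to 10473583, and its mean was 72.2 FPKM. In CTL the 6 birds had 69.4, 44.6, 81.9, 85.3, 45.7 and 71.7 FPKM. In SP the females had 37.0, 35.3 and 42.3 FPKM and the males 71.4, 117 and 82.9 FPKM. The 3 SP females were the lowest of all 24 birds. In SPH the females had 52.0, 45.6 and 74.9 FPKM and the males 55.6, 62.3 and 83.2 FPKM. In SPM the females had 97.5, 120, 109 and 74.8 FPKM and the males 63.0 and 111 FPKM. As for ENPP7, all SP females lay below all SP males and all SPM females, but in SPM the sexes overlapped, and so did SPM and each other group.

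The mean ASAH2 level was 95.9 ± 22.4 FPKM in SPM (SD, n = 6 in every group), 66.4 ± 17.5 in CTL, 64.3 ± 32.3 in SP and 62.3 ± 14.3 in SPH. On the log2 scale SPM was 0.69 ± 0.26 (SE) above SP, 0.62 above SPH and 0.54 above CTL. SPM females had 2.62 times the mean of SP females, and SPM males 0.96 times that of SP males. SPM minus SP was 1.37 ± 0.26 in females and -0.08 ± 0.31 in males. Females minus males was -1.21 in SP, -0.23 in SPH and 0.24 in SPM. These values of ASAH2 are a description, as for ENPP7.

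ASAH1, the acid ceramidase, catalyses the same step in the lysosome and was the second in level, with a mean of 94.8 FPKM. Its highest bird stood 1.57 times above its lowest, a span close to the 1.56 times of SGMS1. Its lowest, median and highest values were 84.3, 92.6 and 109 FPKM in CTL and 84.7, 95.0 and 105 FPKM in SP. They were 77.3, 84.7 and 112 FPKM in SPH and 84.5, 97.0 and 121 FPKM in SPM. All 4 groups overlapped, and the log2 differences between groups ran from -0.10 in SPH minus SP to 0.14 in SPM minus SPH. Within SP, ASAH1 was 84.7 to 94.0 FPKM in females and 96.1 to 105 FPKM in males, without overlap. That difference was -0.17 on the log2 scale (adjusted p = 0.667 by limma).

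SPHK1, a sphingosine kinase that forms sphingosine-1-phosphate, had a mean of 24.7 FPKM. Its values ran from 21.3 to 35.2 FPKM in CTL, 20.8 to 26.8 in SP, 18.6 to 30.6 in SPH and 21.6 to 26.9 in SPM. SP minus CTL was -0.17 (two-sided exact permutation p = 0.156) and SPM minus SP was 0.04 (exact permutation p = 0.652).

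SGPL1, the lyase that breaks down sphingosine-1-phosphate for good, was close to ASAH1 in level, with a mean of 91.4 FPKM. In SP the females had 61.0, 87.5 and 64.5 FPKM and the males 90.6, 134 and 101 FPKM. In SPM the females had 105, 100.5, 102 and 92.8 FPKM and the males 86.1 and 95.4 FPKM. SP females were below all SP males and below all SPM females, as for ENPP7 and ASAH2. CTL ran from 55.3 to 113 FPKM and SPH from 71.4 to 115 FPKM. Females minus males in SP was -0.61 ± 0.21 for SGPL1 (unadjusted p = 0.00957, adjusted p = 0.194), and SPM minus SP in females was 0.51 ± 0.20 (adjusted p = 0.165). Neither passed the limit on the adjusted p of limma.

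SGMS1 and SGMS2, which make sphingomyelin from ceramide in the Golgi and at the plasma membrane, were the least abundant of the 8 genes, with means of 14.0 and 15.3 FPKM. SGMS1 had 12.2, 10.6 and 12.1 FPKM in SP females and 13.4, 16.5 and 16.0 FPKM in SP males. It had 16.4, 15.0, 15.0 and 16.3 FPKM in SPM females and 14.0 and 15.0 FPKM in SPM males. SP females had the lowest mean, but CTL and SPH birds at 11.3 and 11.8 FPKM lay below 2 of the 3. SPM minus SP in females was 0.43 ± 0.11 for SGMS1 (adjusted p = 0.0494 by limma), under the fold limit, and in males it was -0.07 (adjusted p = 0.949). With FPKM rescaled to total reads the value in females was 0.31 (adjusted p = 0.0620), past neither limit. SGMS1 ran from 11.3 to 16.1 FPKM in CTL and from 11.8 to 16.0 FPKM in SPH. SGMS2 ran from 13.0 to 18.6 FPKM in CTL, 12.9 to 16.9 in SP, 13.3 to 18.3 in SPH and 9.4 to 21.0 in SPM, where a female held the lowest and another female the highest value of all birds. Within SP, SGMS2 was 12.9 to 13.9 FPKM in females and 14.0 to 16.9 FPKM in males, without overlap (adjusted p = 0.792 by limma). How many of all genes separate the SP females from the SP males, or from the SPM females, was not counted. These separations are therefore not read as a trait of the genes described here. At the unadjusted limits 8.37% of all genes differed between the sexes in SP and 10.7% between SPM and SP females.

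**Figure D2:**
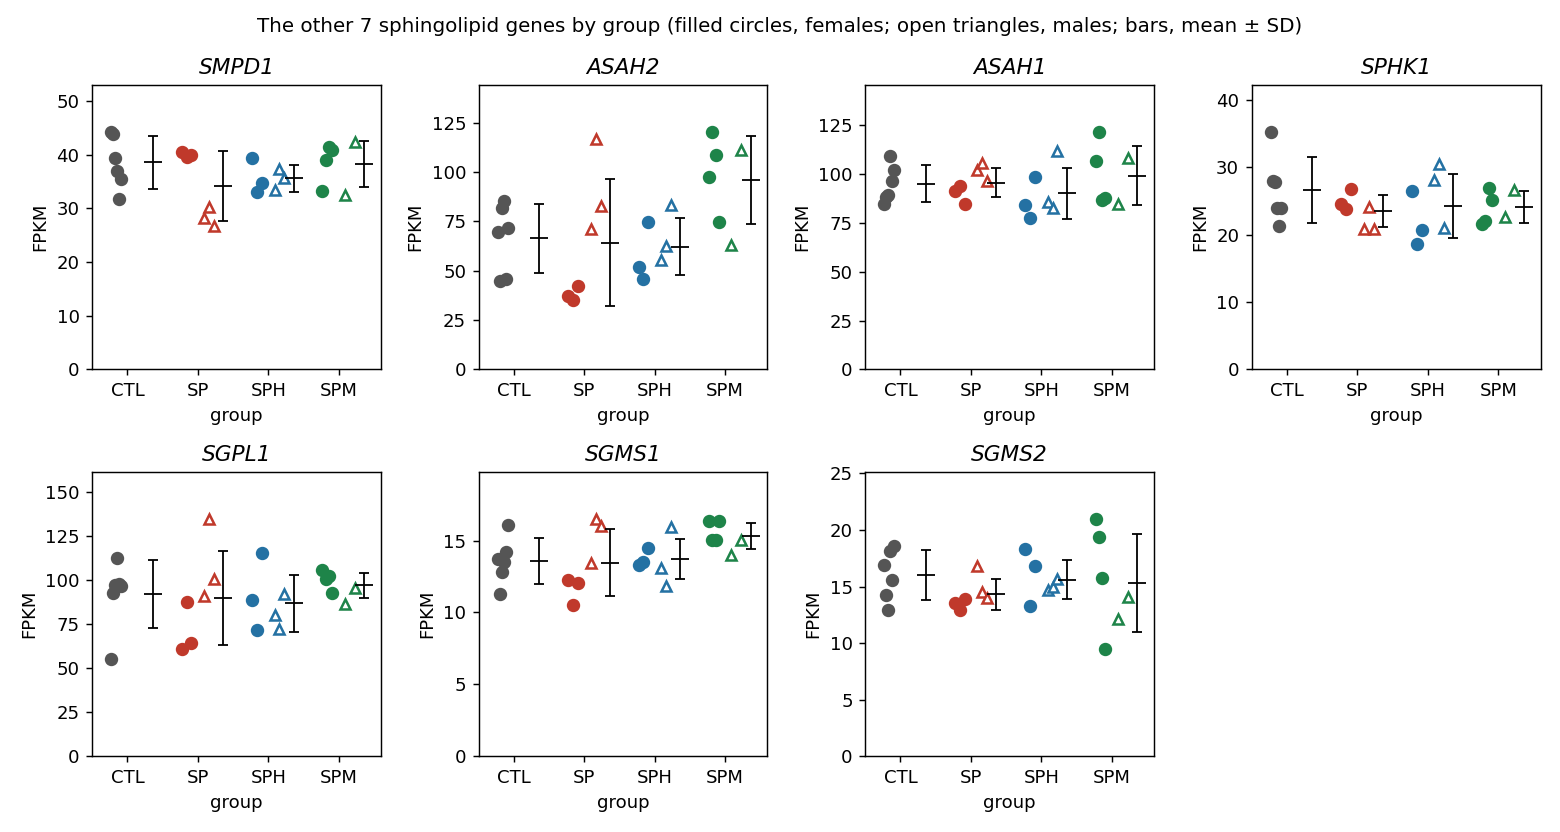
Levels of SMPD1, ASAH2, ASAH1, SPHK1, SGPL1, SGMS1 and SGMS2 in FPKM (vertical axes, each from 0) in every bird of the 4 groups. Filled circles are females, open triangles are males and the bars show the group mean with its SD. In SP the 3 females lie above the 3 males for SMPD1 (39.6 to 40.6 against 26.7 to 30.3). They lie below the males for ASAH2 (35.3 to 42.3 against 71.4 to 117), ASAH1, SGPL1, SGMS1 and SGMS2. The sexes overlap for SPHK1. The share of all genes that separate the sexes in SP was not counted.

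With ENPP7 and ASAH2 left out, none of the other 6 genes passed the limits of the methods (adjusted p under 0.05 and a log2 change past 0.5) in any of the 6 comparisons of groups. No gene of the 17288 tested passed them by limma, so the background was 0% in each comparison, and limma-voom on the reads recovered from the FPKM also called 0 genes. The paper used DESeq2 with these limits and did report differing genes for SP against CTL, SPH against SP and SPM against SP. By RT-qPCR it also reported more ENPP7 in SPM than in SP. At an unadjusted p under 0.05 with that fold limit, the background was 2.58% of genes for SP minus CTL, 4.04% for SPH minus SP, 5.74% for SPM minus SP, 1.87% for SPM minus SPH, 1.85% for SPH minus CTL and 1.99% for SPM minus CTL, between 320 and 993 genes. The count for the other 6 genes remained 0 in all 6 comparisons. Their log2 differences ran from 0.04 to 0.20 for SPM minus SP, from -0.10 to 0.12 for SPH minus SP and from -0.18 to 0.01 for SP minus CTL. SPM and SPH were compared with the same SP birds. Of 36 exact permutation tests on single genes, 2 had a p under 0.05, and the smallest p that 6 birds against 6 allow is 0.00216. Both concerned SGMS1, which was 0.16 higher in SPM than in SPH and 0.17 higher in SPM than in CTL (exact permutation p = 0.0433 each, adjusted p = 0.996 and 0.931 by limma).

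Magnolol and honokiol, which differ in how their phenolic rings are joined, were fed at the same dose and sampled at the same age. ENPP7 in SPM had 1.84 times its SPH mean, and 5 of 6 SPM birds were above every SPH bird. ASAH2 in SPM had 1.54 times its SPH mean, with 4 of 6 SPM birds above every SPH bird. For SMPD1, SPM minus SPH was 0.10 (95% interval -0.13 to 0.32). For ASAH1 it was 0.14 (-0.07 to 0.34), and for SPHK1 0.01 (-0.24 to 0.26). For SGPL1 it was 0.18 (-0.17 to 0.53), for SGMS1 0.16 (-0.05 to 0.37) and for SGMS2 -0.07 (-0.37 to 0.22). The adjusted p of these 6 tests was at least 0.996. In females ENPP7 was 1.19 higher in SPM than in SPH on the log2 scale, without overlap, and in males 0.25 higher. ASAH2 was 0.81 and 0.34 higher, with overlap in both sexes.

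In the fit with 1 mean per group and sex, the adjusted calls of the whole table for SPM minus SP fell in the females. A fit over males only called 6 genes. SPM minus SP gave 1.92% of genes past the adjusted limits in females and 0% in males, and 10.7% and 3.6% at the unadjusted p. Among the other 6 genes none passed the adjusted limits in either sex, and SGPL1 alone passed the unadjusted limits in females. Females minus males within SP gave 1.84% of genes past the adjusted limits and 8.37% past the unadjusted ones. There none of the other 6 genes passed the adjusted limits, and SGPL1 alone passed the unadjusted ones. Within SPM, the backgrounds were 1.21% and 4.69%, with none of the other 6 genes past either limit. Between SP and CTL females the background was 0% at the adjusted and 4.73% at the unadjusted limits, and none of the other 6 genes passed either. The difference between the sexes in SPM minus SP was itself past the adjusted limits for 0% of genes and past the unadjusted ones for 7.33%. SGPL1 and SGMS1 were past the unadjusted limits in that test, at 0.75 ± 0.31 and 0.51 ± 0.18 (adjusted p = 0.513 and 0.444 by limma). SMPD1 stood at -0.44 ± 0.18 (adjusted p = 0.51), in the opposite direction. Over all groups, females minus males gave 1.96% of genes past the adjusted limits and 3.85% past the unadjusted ones, and none of the other 6 genes passed either.

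**Figure D3:**
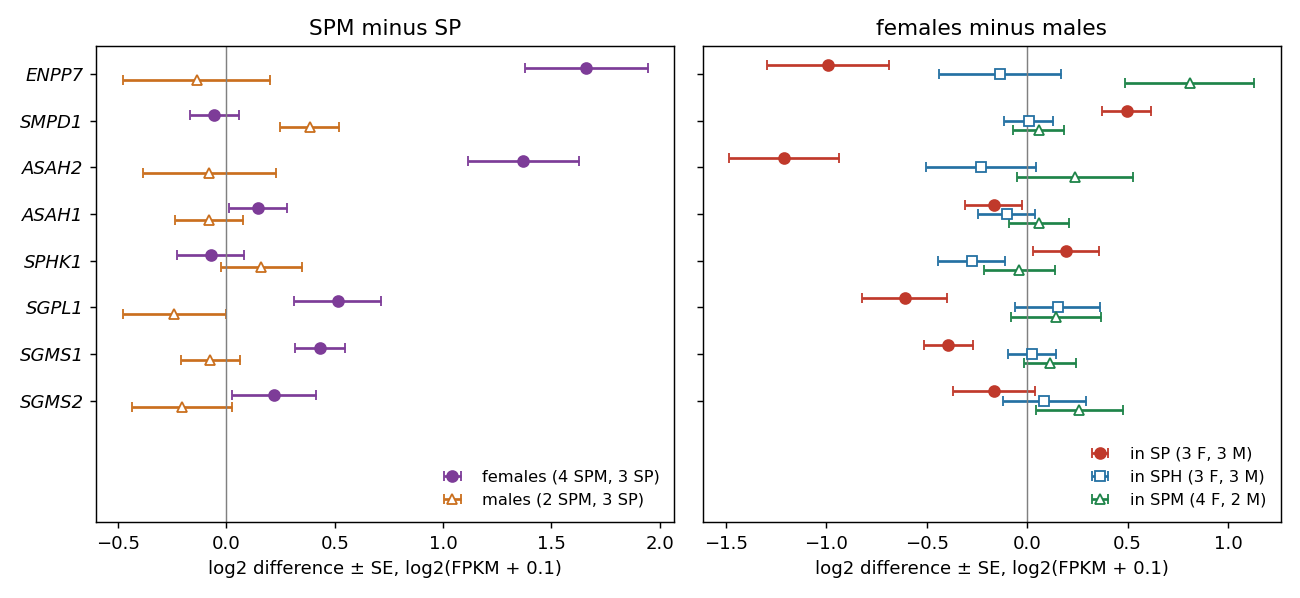
Log2 differences with their SE (horizontal axes) for ENPP7 and the 7 genes described with it. On the left is SPM minus SP in females (filled circles) and males (open triangles), and on the right females minus males within SP (circles), SPH (squares) and SPM (triangles). ENPP7 reaches 1.66 and ASAH2 1.37 in females against -0.14 and -0.08 in males, and for females minus males ENPP7 stands at -0.99 in SP and 0.81 in SPM.

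The rest of the sphingolipid pathway did not move as a group. Of 61 symbols in 6 lists, 53 were found and tested, and 45 of these were neither ENPP7 nor 1 of the 7 genes described with it. In SPM minus SP, 26 of the 45 were higher and 19 lower, with a median log2 difference of 0.02, against 0.01 over all genes. In SPH minus SP, 28 were higher and 17 lower (median 0.04), and in SP minus CTL, 24 were higher and 21 lower (median 0.01). None passed the adjusted limits in these comparisons. At the unadjusted limits, 2 of the 45 were lower in SPM than in SP, 1 was lower in SPH than in SP and 1 was higher in SP than in CTL. Over all genes, 5.74%, 4.04% and 2.58% passed these limits in the same comparisons, so the counts are not read as a change of the pathway.

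Among those few were receptors for sphingosine-1-phosphate, in comparisons that all share the SP birds. S1PR4, a receptor found mainly on lymphocytes in mammals, had a lowest, median and highest value of 1.10, 1.97 and 4.57 FPKM in SP. It had 0.38, 0.89 and 4.05 FPKM in CTL, 0.30, 1.05 and 1.57 FPKM in SPH, and 0.48, 0.64 and 2.18 FPKM in SPM. The groups overlapped. S1PR4 was -1.42 in SPM minus SP (adjusted p = 0.151), -1.25 in SPH minus SP (adjusted p = 0.422) and 1.10 in SP minus CTL (adjusted p = 0.767). The summed level of 9 T cell marker entries ran from 264 to 382 FPKM in SP, 172 to 356 in CTL, 182 to 295 in SPH and 153 to 279 in SPM, and its part in the S1PR4 values was not tested. CD4 of these markers is among the genes that the study singled out on these birds, as lower in SPH and SPM than in SP. S1PR3, a further receptor, was -0.67 in SPM minus SP (adjusted p = 0.232). SPTSSB, a small subunit of the enzyme that starts ceramide synthesis, was -0.68 in SPM minus CTL (adjusted p = 0.931).

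Values of 7 other genes of the lists are given next. They are not set against the genes above, which were named for passing the unadjusted limits. PSAP, which gives rise to the saposins that help lysosomal enzymes reach sphingolipids, had a mean of 378 FPKM and ST3GAL5, which makes the ganglioside GM3, 108 FPKM. Their SPM minus SP differences were -0.18 and 0.14. CERS2 and CERS5, ceramide synthases, had means of 81.3 and 71.4 FPKM and differences of 0.01 and 0.15. SMPDL3B, a relative of acid sphingomyelinase, had a mean of 28.7 FPKM and a difference of 0.28. ACER3, an alkaline ceramidase, and SAMD8, a relative of the sphingomyelin synthases, had means of 9.13 and 11.8 FPKM and differences of 0.08 and -0.05. None of these 7 passed the adjusted limits (adjusted p from 0.423 to 0.987 by limma). Within females a few more genes passed the unadjusted limits in SPM minus SP, where 10.7% of all genes did. SGPP2, a sphingosine-1-phosphate phosphatase, was 0.57 (adjusted p = 0.176), while CERS1 was -0.61 (adjusted p = 0.151) and GM2A, the GM2 activator, was -0.52 (adjusted p = 0.247). In males, where 3.6% of all genes passed, SMPDL3A, a relative of SMPD1, was 0.50 (adjusted p = 0.785).

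**Figure D4:**
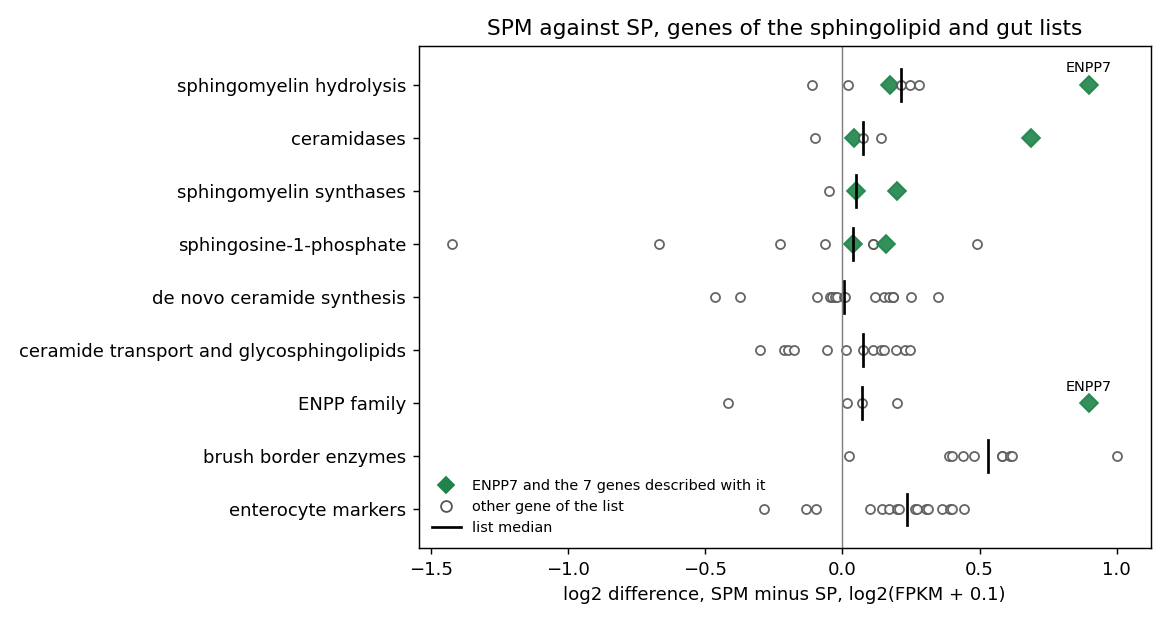
Log2 difference of SPM minus SP (horizontal axis) for every tested gene of 6 sphingolipid lists, the ENPP family, brush border enzymes and enterocyte markers (rows). Green diamonds are ENPP7 and the 7 genes described with it, open circles are the other genes and vertical bars are list medians. ENPP7 stands at 0.90, ASAH2 is the ceramidase at 0.69, the 3 sphingomyelin synthases lie between -0.05 and 0.20, and S1PR4 is the circle at -1.42.

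Some sphingolipid genes passed the adjusted limits between the sexes and none between groups, as in the whole table (1.96% of genes against 0%). The sex term also drew on more birds than each comparison of groups. Those that passed lie on the Z chromosome, of which male birds carry 2 copies and females a single copy. Of the 53 sphingolipid genes tested, 6 lie on Z and 4 of these passed the adjusted limits with lower levels in females. None of the 47 on other chromosomes passed. SPTLC1, a core subunit of serine palmitoyltransferase, ran from 20.4 to 27.0 FPKM in the 16 females and from 42.3 to 57.5 FPKM in the 8 males, a log2 difference of -1.15 ± 0.06 (adjusted p = 5e-12 by limma). UGCG, the glucosylceramide synthase, ran from 24.2 to 44.9 FPKM in females and 45.5 to 66.3 FPKM in males (-0.74, adjusted p = 0.000163). GBA2, a non-lysosomal glucosylceramidase, was -0.62 (adjusted p = 0.000137), with overlap between the sexes. COL4A3BP, which encodes the ceramide transfer protein, ran from 12.6 to 21.2 FPKM in females and 22.2 to 27.9 FPKM in males (-0.56, adjusted p = 0.000747). ACER2 and S1PR3, the other 2 genes on Z, did not pass. Over all 751 genes of Z tested, the median was -0.40 and 252 passed the limits with lower levels in females. Neither ENPP7 nor the 7 genes described with it lie on Z.

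The other ENPP genes had lower levels than ENPP7. ENPP3, an ectonucleotidase that clears extracellular nucleotides in mammals, had a mean of 63.8 FPKM, and ENPP6, a choline phosphodiesterase, 41.8 FPKM. ENPP4 and ENPP2, the latter known as autotaxin, had means of 19.2 and 3.19 FPKM. SPM minus SP was 0.20 for ENPP3, -0.42 for ENPP6, 0.02 for ENPP4 and 0.07 for ENPP2 (adjusted p from 0.622 to 0.979 by limma). ENPP3 in SP was 43.4, 38.2 and 30.0 FPKM in females and 77.2 to 101 FPKM in males, again without overlap. That difference of -1.32 ± 0.47 had an unadjusted p of 0.00995 and an adjusted p of 0.198 by limma. In SPM it was 114, 85.5, 38.8 and 45.1 FPKM in females and 62.0 and 83.7 FPKM in males, so that SPM and SP females overlapped. SPM minus SP for ENPP3 was 0.80 ± 0.44 in females and -0.35 ± 0.52 in males (adjusted p = 0.339 and 0.932 by limma). A single SPH female held the highest ENPP3 value, 157 FPKM.

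ENPP7 followed the enzymes of the brush border from bird to bird. The gene with the highest Pearson correlation to ENPP7 over the 24 birds, on log2 values, was MEP1A (r = 0.897, rho = 0.889), which encodes the alpha subunit of the brush border protease meprin. The next were DPP4, a brush border peptidase (r = 0.865), an unnamed gene on chromosome 31 (r = 0.864), RRM2B, a ribonucleotide reductase subunit (r = 0.848), and LCT, which encodes lactase (r = 0.841). ASAH2 (r = 0.833) came before SLC51A, a subunit of the basolateral bile acid exporter (r = 0.830), and CTSZ, a lysosomal protease (r = 0.828). ALDH3A2 (r = 0.826), which in mammals oxidises the fatty aldehyde that SGPL1 releases, and AOC1 (r = 0.823), the diamine oxidase, completed the 10. Over all other tested genes the median r was -0.01 and the 99th percentile 0.647. These values are a description: each point is 1 library, the birds share group and depth differences, and 7 of the 10 genes remained among the 10 once group means were taken off, but 2 of 10 once means of group and sex were.

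MEP1A showed the sexes and groups in the same order as ENPP7 at the ends of the scale. It had 258, 490.5 and 325 FPKM in SP females and 618, 1023 and 832 FPKM in SP males. In SPM it had 1230.4, 1372, 1517 and 696 FPKM in females and 684 and 1146 FPKM in males. SP females were the lowest group and SPM females the highest by mean, with 358 and 1204 FPKM. SPM minus SP for MEP1A was 1.74 in females and 0.13 in males, a difference of 1.61 ± 0.60 (SE) between the sexes. These too are given without a test, since MEP1A was picked for its likeness to ENPP7.

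**Figure D5:**
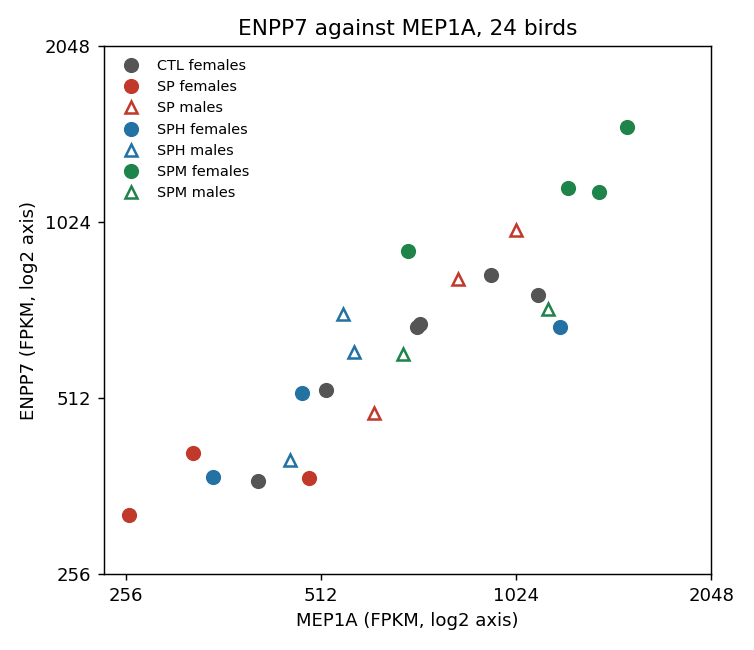
ENPP7 against MEP1A in FPKM, both on log2 axes, for the 24 birds. Colours give the group, filled circles are females and open triangles are males. The SP females lie at the lower left and 3 of the 4 SPM females at the upper right, with a Pearson r of 0.897 over all birds.

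Levels of the markers of the gut lining are given beside those of ENPP7. Of the 10 brush border enzymes tested, ANPEP, MEP1A, ENPEP and ACE were among the most abundant, with means of 1050.4, 759, 289 and 173 FPKM. All 10 were higher in SPM than in SP (median 0.53), with 2 past the unadjusted and none past the adjusted limits. Over all genes the shares were 5.74% and 0%. In females, 7 of 10 passed the unadjusted and 4 the adjusted limits in SPM minus SP (median 0.95), beside 10.7% and 1.92% of all genes. MEP1A, MEP1B and LCT, 3 of those 7, are among the genes that the study singled out on these birds, so the counts are not independent evidence of a direction. In males 5 were higher and 5 lower, and none passed. Their summed level ran from 1894 to 2410 FPKM in SP females, 2634 to 3922 in SP males, 2786 to 4698 in SPM females and 2981 to 4357 in SPM males. The 16 enterocyte markers summed to between 11709 and 16110.1 FPKM in SP females and between 21552 and 26192 in SP males. In SPM they summed to between 15168 and 27401 FPKM in females and between 15889 and 22679 in males. None of the 16 passed even the unadjusted limits with a higher level in SPM than in SP. In females 8 of the 16 passed the unadjusted and 1 the adjusted limits, beside the same 10.7% and 1.92% of all genes. FABP6 and SLC6A19 of these markers are also among the genes that the study singled out. The mean log2 level of the brush border list had an r of 0.81 with ENPP7 over the 24 birds (rho 0.74), or 0.75 without the 2 birds whose list level was farthest from the median. For single enterocyte markers r with ENPP7 ran from -0.15 for CDX1 to 0.76. The r of the brush border list was 0.76 with group means taken off and 0.72 with means of group and sex taken off. In bulk tissue, fewer cells of a type and less RNA per cell cannot be told apart.

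Other cell types gave values beside this. Proliferation markers had an r of -0.66 with ENPP7. It was -0.47 with group means taken off and -0.29 with means of group and sex taken off. All 9 were lower in SPM than in SP (median -0.60). Of these, 6 were past the unadjusted limits, beside 5.74% of all genes. In females all 9 passed the adjusted limits (median -0.86), beside 1.92% of all genes. Their sum ran from 292 to 301 FPKM in SP females against 135 to 214 FPKM in SPM females. The 9 B and plasma cell markers summed to between 216 and 638 FPKM in SP females and between 87.4 and 179 FPKM in SPM females. The study singled out CDK1 of the proliferation markers and JCHAIN, CXCR5 and TNFRSF13C of the B and plasma cell markers on these birds. These values are therefore not independent evidence of a direction. Smooth muscle markers, a sign of how much of the wall was taken, had an r of -0.05 with ENPP7. Their r was -0.28 with group means taken off and -0.36 with means of group and sex taken off. They summed to between 1484 and 1747 FPKM in SP females and between 1407 and 2665 FPKM in SPM females. Pancreatic acinar markers stayed at 0.30 to 3.33 FPKM in sum, and 3 of their 10 genes were at 0 in all 24 birds. The part of these cell types in the ENPP7 values was not tested.

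The 8 genes of cholesterol and fat absorption, handled by the same enterocytes, had an r of 0.79 with ENPP7. In SPM minus SP, 7 of the 8 were higher (median 0.34), and none passed the unadjusted limits. In females 8 of 8 were higher (median 0.60), 6 past the unadjusted and 1 past the adjusted limits, beside 10.7% and 1.92% of all genes. The 45 sphingolipid genes had a lower r of 0.28 with ENPP7. With group means taken off, the r was 0.43 for the sphingolipid genes and 0.78 for the absorption genes. With means of group and sex taken off, it was 0.42 and 0.62, so the 2 lists lay closer together. Among the genes described with it, ASAH2 (r = 0.83), SGPL1 (r = 0.66) and SGMS1 (r = 0.65) went with ENPP7, ASAH1 did less (r = 0.46), and SMPD1 and SPHK1 did not (r = 0.02 and -0.02). SMPD1 and SPHK1 went with each other (r = 0.66) and against SGPL1 (r = -0.37 and -0.42). With means of group and sex taken off, the r of ENPP7 was 0.64 with ASAH2, 0.57 with SGPL1 and 0.24 with SGMS1. On that measure it was 0.35 with ASAH1, 0.27 with SMPD1, 0.20 with SGMS2 and 0.11 with SPHK1. SGMS1 thus no longer stood above ASAH1 or SMPD1.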

How the data were processed

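Ileum RNA of 24 broilers was sequenced, 6 per group. The authors made libraries (NEBNext in the methods, TruSeq in the labels) and deposited FPKM values with gene lengths. The submitters' processing notes name the build GRCg6a, a mouse build beside it, and Bowtie 0.12.2. Which counting program and annotation release were used is not given in the sources used here. DESeq2 was the test of the authors, and their columns of fold changes and p-values were not used. The FPKM values multiplied by gene length are whole reads for 100% of values above 0 (tolerance 0.001 reads), 14393822 to 19435410 per bird.

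The 17288 of 25339 genes whose mean FPKM reached 0.1 were tested with limma 3.58.1 in R 4.3.3 on log2(FPKM + 0.1), with 1 mean per group, a trend in the variance and Benjamini-Hochberg adjustment over all genes per comparison. A fit with a term for sex gave females minus males, and a fit with 1 mean per group and sex, added after the data were seen, gave the differences within sexes. Calls needed an adjusted p under 0.05 and a log2 change past 0.5, the limits of the methods. Fold changes on this scale understate those of low genes. Single genes were compared by two-sided exact permutation tests (scipy 1.17.1). The fit was tested on simulated data. Genes described together, gene lists and named genes (every listed sphingolipid gene past the unadjusted limits, the 2 most abundant per list, the ENPP family, the 10 genes most like ENPP7 and the 5 most abundant brush border enzymes and enterocyte markers) were chosen with earlier results of these data known. Alternatives were the pseudocount (1 and 0.01), filters, total-read scaling, quantile normalization, sex, the replicate block, only the 2 groups compared, limma-voom on the recovered reads, and each bird left out. Nothing says whether RNA was extracted or sequenced in batches. ASAH2 was matched by its gene ID. A further deposited table of transcripts without annotation was not used here, and the level of 1 gene that the naming rule picks is not reported here.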

Additional observations from a re-analysis of the deposited data

Results flagged for a closer look

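The order of the sexes in ENPP7 was reversed between SP and SPM. All 3 SP females lay below all 3 SP males, and all 4 SPM females lay above both SPM males, so that females minus males differed by 1.80 on the log2 scale between the groups. This is given without a test because ENPP7 was chosen by its level in SPM. MEP1A was ordered the same way in SP, with females at 258 to 490.5 FPKM and males at 618 to 1023 FPKM. In SPM its sexes overlapped. DPP4 and ALDH3A2, also among the genes most like ENPP7, showed the full reversal. In SP, DPP4 had 104 to 129 FPKM in females and 154 to 236 FPKM in males. In SPM it had 216 to 247 and 130 to 197 FPKM. ALDH3A2 had 136 to 171 and 195 to 242 FPKM in SP, and 218 to 262 and 151 to 201 FPKM in SPM. The other genes named as most like ENPP7 overlapped between the sexes in SP, in SPM or in both. All were picked for their likeness to ENPP7, and this was not tested.

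For SGPL1, the bird CTL 1 stood apart in its group, at 55.3 FPKM against 92.4 to 113 FPKM in the other 5 CTL birds. It was the only bird to stand apart among 40 sets of 4 or 6 values examined, and chance gives about 1 in 20.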

How the results depend on the processing

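The ENPP7 difference of SPM minus SP was 0.90 over all birds, 1.66 in females only and -0.14 in males only. The fit with 1 mean per group and sex gave the same values within sexes. Whether ENPP7 depends on sex here was not tested, and the males were 2 in SPM and 3 in SP. SPM minus SPH in males was 0.25. For ASAH2, SPM minus SP was 0.69 over all birds, 1.37 in females only and -0.078 in males only, again with the same values in that fit. Leaving out each bird in turn gave 0.761 to 1.08 for SPM minus SP, 0.728 to 0.987 for SPM minus SPH and 0.484 to 0.767 for SPM minus CTL in ENPP7, and 0.543 to 0.888, 0.533 to 0.730 and 0.433 to 0.652 in ASAH2. No other alternative moved an ENPP7 difference by more than the spread within groups, 0.497 on the log2 scale. That bound is wide beside the 0.90 of SPM minus SP. For the comparisons with SPM, these ranges rest on the values by which ENPP7 was chosen and are not a test of it. Birds of the same number in different groups did not deviate together: of 36 such pairs 1 had a correlation above 0.1 (median -0.03). With the replicate block, SPM minus SP was 0.90, and none of the other 6 genes was called. Of 468 values with a test under an alternative, 29 changed sign, none with a size above 0.198 in the main analysis, and none was called. Among the differences within sexes, added after the data were seen, those of SMPD1 in SP and SGMS1 in females, given above, were the only ones of the other 6 genes to change sides of a limit with the adjusted p, over SPM minus SP in each sex and females minus males in SP and SPM. SGPL1 in females fell to 0.39 with total-read scaling and 0.42 with quantile normalization, under the fold limit. Total-read scaling moved the median of all genes by more than 0.1 on the log2 scale there, to 0.15 for females minus males in SP, -0.10 for SPM minus SP in females and -0.17 for its difference between the sexes. Over all genes, the count at the unadjusted limits for SPM minus SP went from 993 to 547 with a pseudocount of 1, to 623 in males only (6 past the adjusted limits) and to 1831 in females only, where 121 genes passed the adjusted limits in place of 0 over all birds. For SP minus CTL, 446 became 182 and 811, and for SPH minus SP, 699 became 360 and 1479. For SPM minus SPH, 323 became 133 with a pseudocount of 1 and 614 in males only. For SPH minus CTL, 320 became 139, and for SPM minus CTL, 344 became 144. A minimum mean of 1 FPKM gave 222, 434, 160, 160 and 174 genes for these 5 comparisons. The split of these counts moved with the scaling: for SP minus CTL from 178 higher and 268 lower to 239 and 212 with quantile normalization, and for SPM minus SP from 439 and 554 to 333 and 639, for SPM minus SPH from 163 and 160 to 122 and 195, for SPM minus CTL from 182 and 162 to 132 and 211, and for females minus males from 272 and 393 to 360 and 312 with total-read scaling. Females minus males went from 665 to 384 with a pseudocount of 1. The fit over females only and the fit with 1 mean per group and sex differed in the adjusted calls for SPM minus SP in females, 121 against 332. Groups of 2 to 4 birds within sexes and the lack of CTL males limit these comparisons, and the intervals cover the spread between birds only.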
